A study of Homo sapiens with 8 samples.

Results

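The genes described here are the 8 human SMAD genes, SMAD1 to SMAD7 and SMAD9, and the SKI repressor genes SKI and SKIL. They were taken by name, as all probe sets whose platform annotation lists 1 gene symbol equal to a member, which gave 38 of the 54675 probe sets on the arrays and 10 of the 19775 genes compared. RNA came from K562 cells, a human erythroleukaemia line derived from chronic myeloid leukaemia. The cells in both groups stably carried p42-C/EBPa-ER, the full-length form of the granulocyte transcription factor C/EBPa joined to the oestrogen receptor (ER). One group of 4 received 1 µM beta-estradiol for 6 h, which moves such a fusion into the nucleus, and the other 4 received the ethanol vehicle for the same time. The sources used here give neither the promoter of the transgene nor whether the line is 1 clone. The labels name no cells without the fusion, so an effect of estradiol through the fusion and one through any other receptor cannot be told apart. Sample titles call the 4 arrays of a group biological replicates without saying how the cultures were kept apart, so p-values cover only the scatter among these arrays, which may be technical.

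SMAD proteins carry signals of the TGF-beta family from the cell surface to the genes. Ligands of the TGF-beta and activin type make their receptors phosphorylate SMAD2 and SMAD3, bone morphogenetic proteins (BMPs) do the same to SMAD1, SMAD5 and SMAD9, and both kinds join SMAD4 before they bind DNA. SMAD6 and SMAD7 are inhibitory SMADs whose own transcription is raised by the pathway as feedback, SMAD6 acting mainly on the BMP branch and SMAD7 on both, and SKI and SKIL (also named SnoN) are repressors that bind SMAD complexes. In blood cells the TGF-beta branch is known for restraining the division of progenitors, and the BMP branch for a part in erythroid development.

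Estradiol was set against vehicle to ask which of these genes differed after 6 h, and whether the feedback genes pointed to the BMP or to the TGF-beta branch. SMAD3 rose 1.76-fold and SMAD5 rose 1.18-fold, while SMAD6 fell 1.41-fold and SMAD2 fell 1.16-fold. SMAD1, SMAD4, SMAD7, SMAD9, SKI and SKIL did not pass the test. A gene was called when its adjusted p was below 0.05, with limma and Benjamini-Hochberg adjustment over all 19775 genes. By that rule 17.9% of all genes were called, 8.29% higher and 9.60% lower, and of the 10 members 4 were called, 2 in each direction. In a fit of only the genes above the median gene by mean level, 43.2% of genes and 5 of 8 members were called. The balance over all genes depended on the scaling: 46.3% of the called genes were higher as reported, and 54.5% with arrays centred on their medians, which left the members at 2 in each direction. The median change of the members was -0.05 on the log2 scale, against -0.03 for all genes. Values are log2 expression values, and each gene is represented by its probe set with the highest mean. Array medians were 4.97 to 5.08. The distance of dim genes from background was not assessed.

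**Figure D1:**
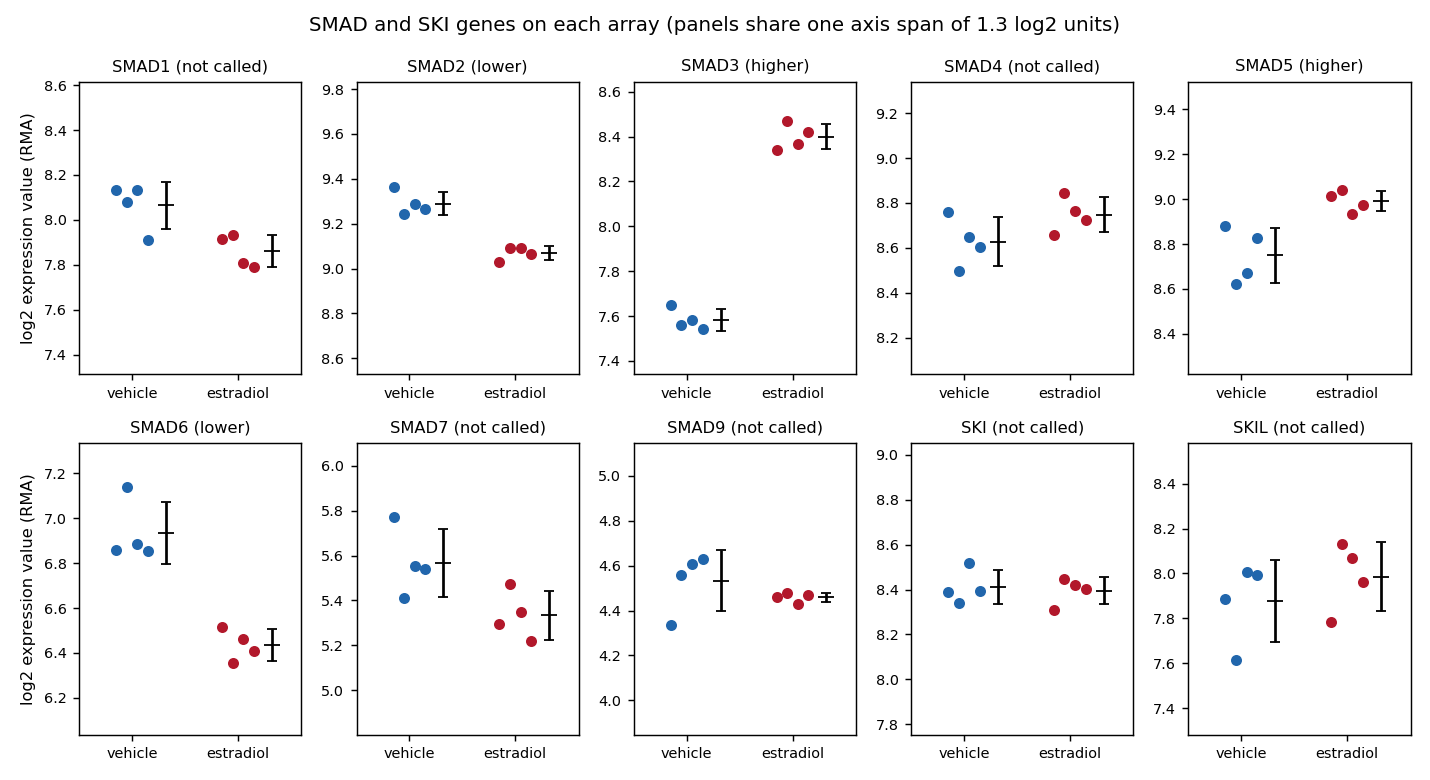
Log2 expression value (vertical axis, RMA) of each of the 10 genes on the 4 vehicle arrays (blue) and the 4 estradiol arrays (red). Points within a group run from replicate 1 on the left to 4 on the right, the black marks give the mean and the SD, and every panel spans the same number of log2 units. The groups stand apart for SMAD2, SMAD3, SMAD5 and SMAD6 and overlap for the other 6 genes.

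SMAD3, a receptor-activated SMAD that binds DNA directly, showed the largest change of the 10. Its log2 values were 8.34, 8.47, 8.37 and 8.42 in estradiol replicates 1 to 4, and 7.65, 7.56, 7.58 and 7.54 in vehicle replicates 1 to 4. All 4 estradiol arrays lay above all 4 vehicle arrays, with a gap wider than the range of either group. The means were 8.40 ± 0.06 (SD, n = 4) and 7.58 ± 0.05, a difference of 0.82 ± 0.05 (SE, limma adjusted p = 4.29e-06). All 4 probe sets of SMAD3 were called higher, with changes of 0.60 to 0.83 on the log2 scale, and in each of them the groups were apart.

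SMAD2, the other SMAD of the TGF-beta and activin branch, moved the opposite way by a smaller amount. Its values were 9.03, 9.09, 9.09 and 9.07 with estradiol and 9.36, 9.24, 9.29 and 9.26 with vehicle. The groups did not overlap, and the difference was -0.22 ± 0.04 (SE, limma adjusted p = 0.00649). All 6 probe sets of SMAD2 were lower with estradiol, by 0.06 to 0.22 on the log2 scale, and 2 of them were called in a limma fit of all probe sets. With the mean of the 6 probe sets the change was -0.16 and missed the threshold (adjusted p = 0.0655).

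Of the BMP branch, SMAD5 was the member that passed the test. Its values were 9.01, 9.04, 8.94 and 8.97 with estradiol and 8.88, 8.62, 8.67 and 8.83 with vehicle. The groups were apart by a margin narrower than the spread of the vehicle arrays, and the difference was 0.24 ± 0.06 (SE, limma adjusted p = 0.0302). The 5 probe sets of SMAD5 were all higher, by 0.18 to 0.41, and 1 of them was called among all probe sets. That 1 was not the probe set that stands for the gene, which missed the threshold there (limma adjusted p = 0.0540). The call was lost in 5 of the 8 fits that leave out 1 array, namely when estradiol 1, estradiol 2, estradiol 4, vehicle 2 or vehicle 3 was dropped (changes of 0.20 to 0.29 over the 8 fits, adjusted p of 0.0550 to 0.0870 in those 5).

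SMAD1, which shares the BMP receptors with SMAD5, had values of 7.91, 7.93, 7.81 and 7.79 with estradiol and 8.13, 8.08, 8.13 and 7.91 with vehicle. Vehicle replicate 4 fell among the estradiol arrays, and the difference of -0.20 ± 0.06 (SE) missed the threshold (limma adjusted p = 0.0568). Without vehicle replicate 4 the difference was -0.25 and was called (adjusted p = 0.0181). A dim probe set of SMAD1, with a mean level of 3.59, differed by 0.32 in the other direction, and the mean of the 3 probe sets gave -0.0048 (adjusted p = 0.972). SMAD9 stood at 4.46 ± 0.02 (SD, n = 4) with estradiol and 4.53 ± 0.14 with vehicle, below the array medians, with a difference of -0.08 ± 0.07 (SE, limma adjusted p = 0.537).

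SMAD4, the common partner of both branches, had values of 8.66, 8.84, 8.76 and 8.72 with estradiol and 8.76, 8.496, 8.65 and 8.60 with vehicle. The groups overlapped, and the difference of 0.12 ± 0.07 (SE) did not pass the test (limma adjusted p = 0.279). Its 5 probe sets ran from -0.14 to 0.19, and 0 of them were called.

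Among the inhibitory SMADs, SMAD6 fell. Its values were 6.52, 6.35, 6.46 and 6.41 with estradiol and 6.86, 7.14, 6.88 and 6.85 with vehicle. Every estradiol array lay below every vehicle array, and vehicle replicate 2 stood above the other 3 vehicle arrays. The means were 6.44 ± 0.07 (SD, n = 4) and 6.93 ± 0.14, a difference of -0.50 ± 0.07 (SE, limma adjusted p = 0.00128), or -0.43 (adjusted p = 6.18e-04) without vehicle replicate 2. The call rested on the brightest of its 4 probe sets. The other 3, with mean levels of 5.23, 4.21 and 4.12, differed by -0.11, -0.20 and -0.06 without being called. With the mean of the 4 probe sets the change was -0.22 (adjusted p = 0.132), and with the brightest probe set that has no shared-probe suffix it was -0.20 (adjusted p = 0.407). Such a suffix in the array maker's name (for example _s_at or _x_at) says that the probes can match several transcripts. With such probe sets left out SMAD4, which was not called, differed by -0.14 in place of 0.12 (adjusted p = 0.444).

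SMAD7 has 1 probe set in the table, near the array medians. Its values were 5.29, 5.47, 5.35 and 5.22 with estradiol and 5.77, 5.41, 5.55 and 5.54 with vehicle. Vehicle replicate 2 lay among the estradiol arrays, and the difference of -0.23 ± 0.08 (SE) did not pass the test (limma adjusted p = 0.0944). It passed without vehicle replicate 2 (-0.29, adjusted p = 0.0442), with 75th percentile centring (-0.25, adjusted p = 0.0300) and with array quality weights (-0.24, adjusted p = 0.0382). Neither inhibitory SMAD was called higher in any setting run. Within arrays, SMAD7 minus SMAD6 was -1.10 ± 0.16 (SD, n = 4) with estradiol and -1.37 ± 0.27 with vehicle. The change of 0.26 was not past the threshold (exact two-sided permutation p = 0.143, adjusted p = 0.200 over the 2 such tests, smallest p possible 0.0286), so an unequal change of SMAD6 and SMAD7 was not shown. Without vehicle replicate 1 it was 0.36 (exact permutation p = 0.0286, the smallest possible).

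SKI and SKIL, the repressors that hold SMAD target genes down, were not called. SKI had values of 8.31, 8.45, 8.42 and 8.40 with estradiol and 8.39, 8.34, 8.52 and 8.40 with vehicle, which differed by -0.02 ± 0.05 (SE, limma adjusted p = 0.880). SKIL, a gene known to be induced by TGF-beta as feedback, had values of 7.78, 8.13, 8.07 and 7.96 with estradiol and 7.89, 7.61, 8.01 and 7.995 with vehicle. Its arrays overlapped across groups and the difference was 0.11 ± 0.10 (SE, limma adjusted p = 0.566). The 3 probe sets of SKI ran from -0.02 to 0.08 and the 5 of SKIL from -0.08 to 0.11. SKIL minus SKI within arrays changed by 0.13 (exact two-sided permutation p = 0.200, adjusted p = 0.200).

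**Figure D2:**
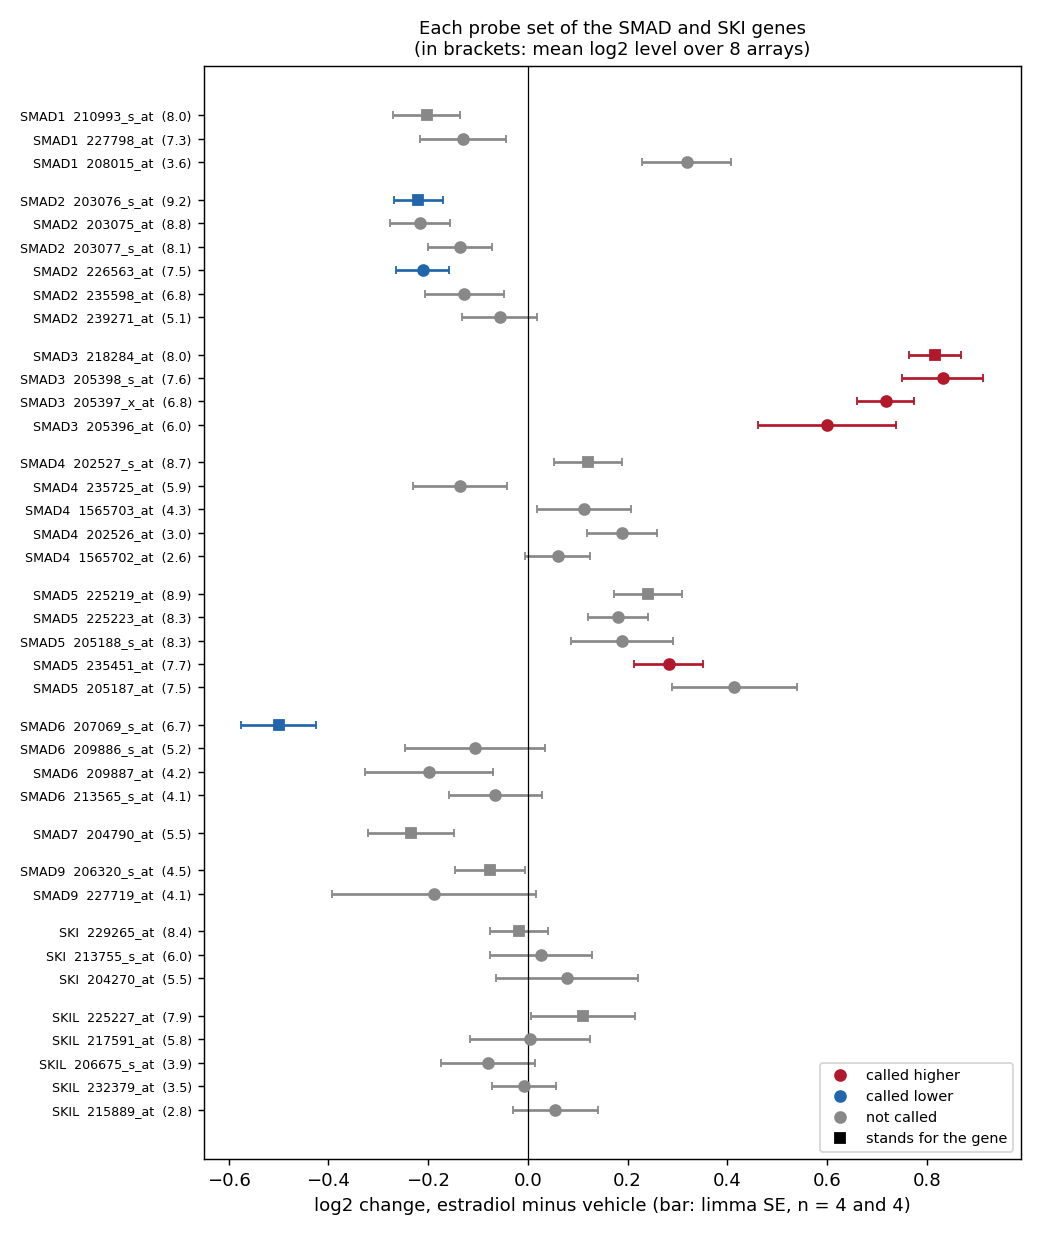
Log2 change, estradiol minus vehicle (horizontal axis, bars are limma standard errors, n = 4 and 4), of each of the 38 probe sets, with its mean log2 level in brackets. Red and blue mark probe sets called higher and lower among all 54675 probe sets, grey those not called, and squares the probe set that stands for the gene. All 4 SMAD3 probe sets lie between 0.60 and 0.83, while 1 of 4 SMAD6 probe sets is called.

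Over all probe sets on the arrays 10.4% were called, 5.32% higher and 5.05% lower. Of the 38 probe sets of the members 5 were called higher, 4 of SMAD3 and 1 of SMAD5, and 3 lower, 2 of SMAD2 and 1 of SMAD6. With arrays centred on their medians the split was 7 higher and 1 lower. The same centring moved the higher share of called genes over all genes from 46.3% to 54.5%. Its split over all probe sets is not given here. The number of member probe sets called was 4 without estradiol replicate 4. Of the 38, 11 had a mean level below the lowest array median. The groups did not overlap in 13 of the 38 probe sets, against 17.5% of all probe sets, and in 4 of the 10 genes, against 24.1% of all genes. The 13 were 4 probe sets each of SMAD2, SMAD3 and SMAD5 and 1 of SMAD6.

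The same array of a group was often the highest or the lowest for the members, a pattern noted after the values were seen. The share of all genes with the same extreme array was not counted here. The pattern is therefore not shown to be particular to the members. Estradiol replicate 2 was the highest estradiol array for 9 of the 10 genes, all but SMAD6, and vehicle replicate 2 was the lowest vehicle array for 6. The upper quartile of all probe sets was 7.01 in estradiol replicate 2, against 6.95 to 6.98 in the other estradiol arrays, and 6.90 in vehicle replicate 2, the lowest of the 8 arrays. Without estradiol replicate 2 SMAD3 changed by 0.79 and SMAD6 by -0.47, and without vehicle replicate 2 by 0.81 and -0.43, and all 4 remained called.

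**Figure D3:**
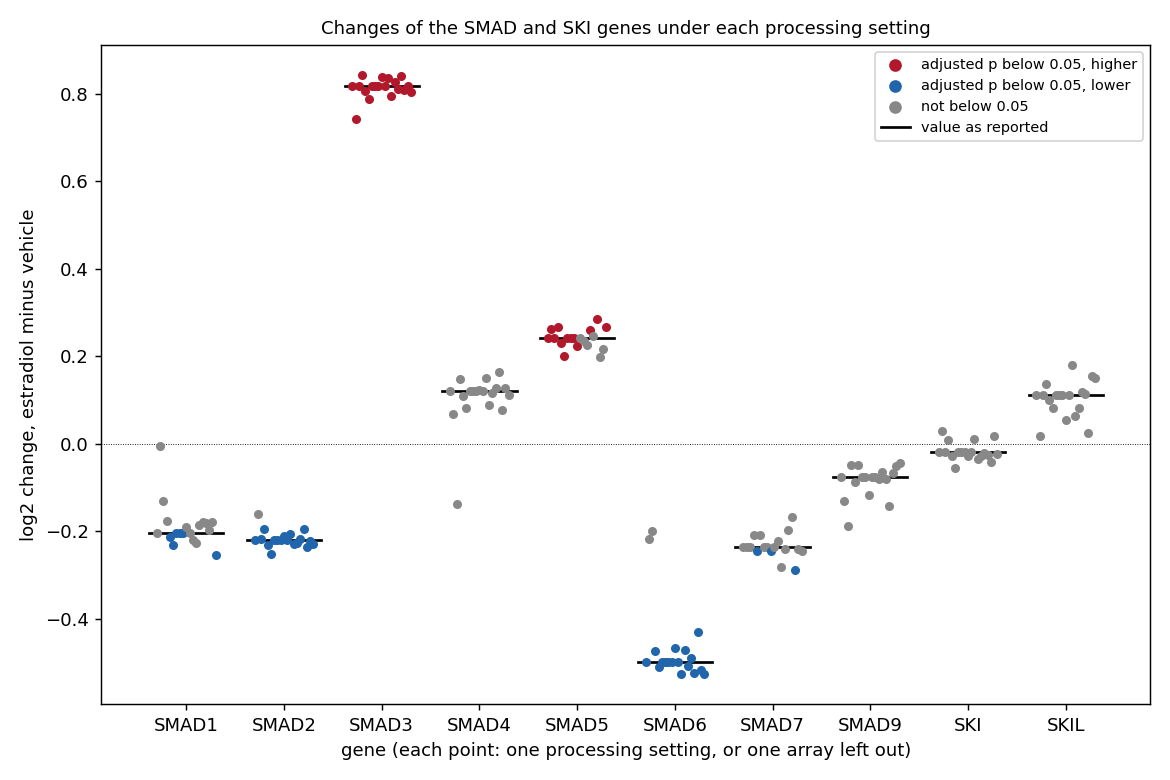
Log2 change of each gene (vertical axis, estradiol minus vehicle) under each processing setting and with each array left out in turn, 1 point per fit. Red and blue points had an adjusted p below 0.05 and grey ones did not, and the black line is the value as reported. SMAD3 stayed between 0.74 and 0.84 and was called in every fit shown, while SMAD6 was at -0.22 and -0.20, without a call, in the fits that used other probe sets.

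The RefSeq table of promoter windows, each of 300 bases with 250 before and 50 after a transcription start (GRCh38.p14), held 20 windows for 9 of the 10 genes and no entry for SKI. They were searched on both strands for 5 motifs. TTGCGCAA is the palindromic site of C/EBP proteins, GTCTAGAC the palindromic SMAD binding element, CAGACA is known as the SMAD box, GGCGCC is one GC-rich element bound by SMADs in BMP-responsive genes, and AGATAA is bound by GATA factors. The windows of the called genes with the largest changes are shown because they differ in these motifs, which stand in capitals (5′ to 3′, plus strand, chr15:66701986-66702285 for SMAD6 and chr15:67065352-67065651 for SMAD3).
SMAD6: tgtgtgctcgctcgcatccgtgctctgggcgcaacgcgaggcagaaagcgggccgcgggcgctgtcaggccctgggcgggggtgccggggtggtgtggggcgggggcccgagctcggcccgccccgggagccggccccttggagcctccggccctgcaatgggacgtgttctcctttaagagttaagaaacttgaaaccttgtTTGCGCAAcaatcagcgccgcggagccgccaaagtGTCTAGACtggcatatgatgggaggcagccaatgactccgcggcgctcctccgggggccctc
SMAD3: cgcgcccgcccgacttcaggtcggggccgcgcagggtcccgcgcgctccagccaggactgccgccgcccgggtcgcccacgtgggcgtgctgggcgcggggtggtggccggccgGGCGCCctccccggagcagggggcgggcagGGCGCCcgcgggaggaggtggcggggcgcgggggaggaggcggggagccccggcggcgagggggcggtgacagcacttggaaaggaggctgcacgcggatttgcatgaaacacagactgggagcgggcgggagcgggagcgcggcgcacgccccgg
The SMAD6 window holds TTGCGCAA at position -47 and GTCTAGAC at -12 from the start. Among all 35116 windows of this length, 0.151% hold TTGCGCAA and 0.202% hold GTCTAGAC, and none of the other 19 windows of the members holds either. The SMAD3 window holds GGCGCC at 2 places, positions -136 and -106. GGCGCC occurs in 8 of the 20 member windows (19.2% of all windows), among them those at the gene starts of SMAD2, SMAD4, SMAD5 and SKIL. CAGACA occurs in 1 (16.9% of all), a window of SMAD3 at another start, and AGATAA in 1 (10.3% of all), a window of SMAD1. The 3 windows of SMAD7 and the 1 of SMAD9 hold none of the 5 motifs. These matches describe the letters of the windows, and binding was not measured here.

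By the root mean square difference of values centred on each gene's vehicle mean, over the 8 arrays, the genes nearest to SMAD3 were MAP1LC3B (0.023 log2 units), which codes for an autophagosome protein, NFE2 (0.045), a transcription factor of platelet precursors, and PPP1R12A (0.046), a myosin phosphatase subunit. They rose by 0.82, 0.86 and 0.82 on the log2 scale. Those nearest to SMAD6 were the RNA helicase gene DDX31 (0.067), the phospholipase gene PLCD1 (0.069) and AMHR2 (0.072), a receptor of the TGF-beta family, with changes of -0.51, -0.52 and -0.47. These lists rest on 8 arrays in 2 groups and on the genes' own changes.

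Other genes of the pathway were read from 7 lists by role, 137 genes in all, of which 127 were measured and 10 were not analysed here. Of the 127, 20 rose, 18 fell and 89 were not called, a share called of 29.9% against 17.9% of all genes. The share of 43.2% given above for genes above the median gene comes from a separate fit, adjusted over 9887 genes. It is therefore not on the same footing as the 29.9%. The lists were not matched to other genes by level. The genes with the largest changes were THBS1, ID1, TGIF1, ID2 and ACVR1B upward and GDF15, HEY1 and BAMBI downward. ACVR1, BMP8B, STUB1, SMURF1, SMURF2, MSX1, JUNB, FN1, ATF2, CREBBP, E2F4 and MEN1 were named below after their values had been seen.

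Of 24 measured ligand genes 1 rose and 3 fell (16.7% called, against 17.9% of all genes), with a median change of -0.03. GDF15, a distant family member induced by stress, fell 2.17-fold on the probe set that stands for it (-1.12 ± 0.05 SE, limma adjusted p = 9.27e-07). It was called on 1 of 3 probe sets, and the mean of the 3 gave -0.48. The call was lost without probe sets that carry a shared-probe suffix (-0.26, adjusted p = 0.125). GDF11, a ligand of activin receptors, fell by 0.28 on the log2 scale and TGFB1, the main TGF-beta ligand gene of blood cells, by 0.16, while TGFB3 rose by 0.21. The calls of TGFB1 and TGFB3 were each lost in 5 of the 8 fits without 1 array (adjusted p of 0.0554 to 0.0862 and 0.0532 to 0.0832) and with the mean of their probe sets (-0.08 and 0.03). The number of ligand genes called was 2 without estradiol replicate 2, without estradiol replicate 4 and without vehicle replicate 4. No BMP ligand gene measured was called on the probe set that stands for it, though 1 of 3 probe sets of BMP8B was called lower.

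Of 16 measured extracellular regulators 2 rose and 2 fell, with a median of -0.07. THBS1, thrombospondin 1, which can activate latent TGF-beta, rose 6.37-fold, from 6.87 ± 0.22 (SD, n = 4) to 9.54 ± 0.09, and all 7 of its probe sets were called higher, by 0.97 to 2.71 on the log2 scale, with 0.97 for the brightest without a shared-probe suffix. FST, the activin-binding protein follistatin, rose 1.63-fold, or 0.71 on the log2 scale. All 3 of its probe sets were called, by 0.33 to 1.63, and the brightest without a shared-probe suffix gave 0.33. The related FSTL3 fell by 0.35 and LRRC32, which holds latent TGF-beta at the cell surface, by 0.30.

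Of 17 measured receptors and coreceptors 3 rose and 3 fell (35.3% called, against 17.9% of all genes), with a median of 0.04. ACVR1B, a type I activin receptor that signals through SMAD2 and SMAD3, had values of 8.86, 8.88, 8.78 and 8.80 with estradiol and 7.81, 7.72, 7.62 and 7.62 with vehicle. It rose 2.20-fold (1.14 ± 0.05 SE, limma adjusted p = 1.56e-06), with 4 of 6 probe sets called and 0.71 for their mean. The coreceptor TGFBR3 rose by 0.72 and ACVR1, a type I receptor of the BMP branch, by 0.48. BAMBI, a pseudoreceptor that dampens the pathway and is itself induced by it, had values of 8.59, 8.65, 8.56 and 8.58 with estradiol and 9.53, 9.31, 9.41 and 9.47 with vehicle. It fell 1.78-fold (-0.83 ± 0.06 SE, limma adjusted p = 1.11e-05). TGFBR2, the type II TGF-beta receptor, fell by 0.52 on 1 of 2 probe sets (-0.28 for their mean), and AMHR2 by 0.47.

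Among 24 measured cytoplasmic regulators 4 rose and 1 fell (20.8% called, against 17.9% of all genes), with a median of 0.04. NEDD4L, a ubiquitin ligase that acts on SMAD2 and SMAD3, rose by 0.42, with 2 of 6 probe sets called and 0.17 for their mean. Its call was lost without shared-probe probe sets (0.20, adjusted p = 0.188). MAP3K7, the kinase TAK1 of the branch that does not use SMADs, rose by 0.30, the deubiquitinase USP9X by 0.27 and the endosomal adaptor ZFYVE16 by 0.26. ZFYVE16 was called on 1 of 5 probe sets, which ran from -0.01 to 0.35, and lost its call under 1 alternative setting. STUB1, a ubiquitin ligase, fell by 0.14 (limma adjusted p = 0.04945), and 0 of its 3 probe sets were called among all probe sets. With median centring 0 genes of this list were called lower. SMURF1 and SMURF2, ligases named for their action on SMADs, were not called.

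Among 19 measured nuclear cofactors 4 rose and 4 fell (42.1% called, against 17.9% of all genes), with a median of 0.00. The SMAD-binding repressor ZEB2 rose by 0.41 on the log2 scale, the acetyltransferases EP300 and CREBBP by 0.36 and 0.26, and ATF2 by 0.32. TGIF2, a homeodomain corepressor, fell by 0.52, MECOM (EVI1), which binds SMAD3, by 0.49 (-0.23 for the mean of its 5 probe sets), E2F4 by 0.27 and MEN1 by 0.18. With the mean of each gene's probe sets the split was 2 higher and 6 lower. CREBBP was called on 1 of 4 probe sets, which ran from -0.27 to 0.26, and ATF2 on 1 of 3, from -0.09 to 0.32. ZEB2 was called on 1 of 5, from -0.01 to 0.43, and EP300 on 1 of 2, from 0.35 to 0.36. The 1 probe set of MEN1 was not called among all probe sets.

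**Figure D4:**
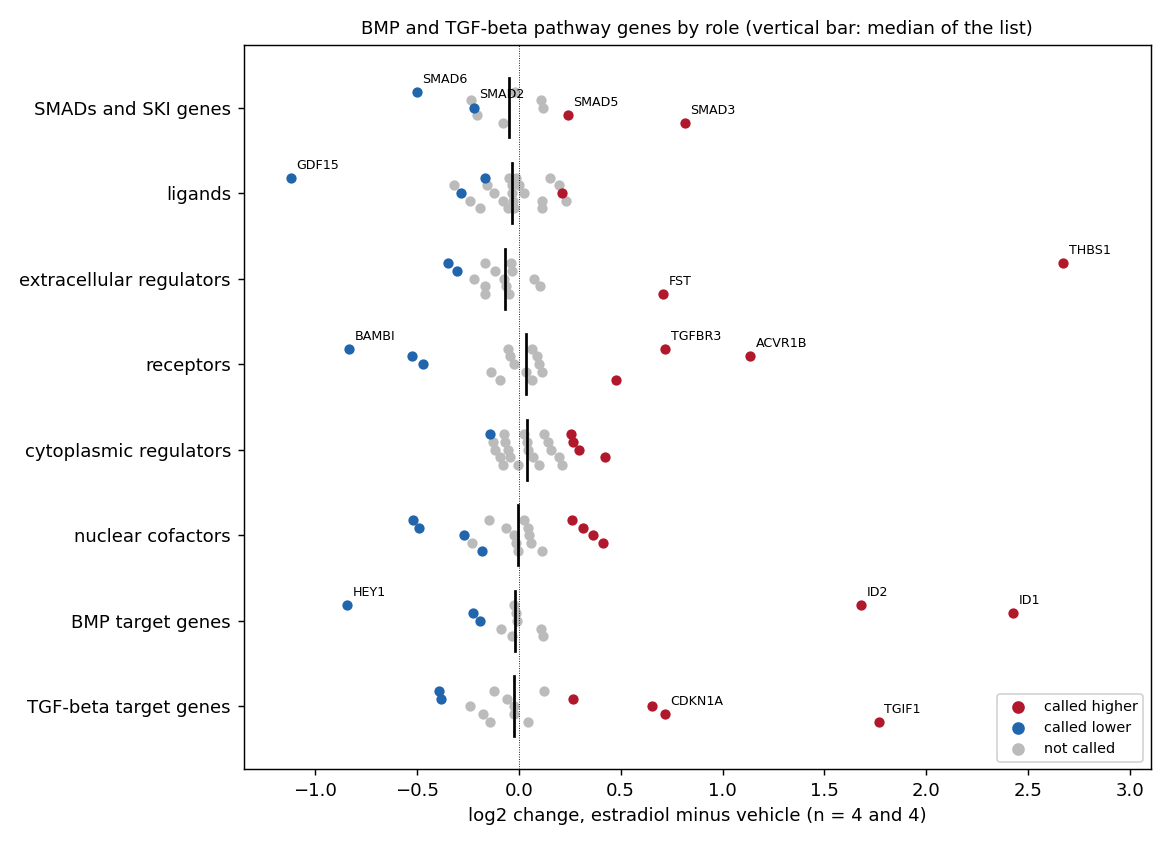
Log2 change, estradiol minus vehicle (horizontal axis, n = 4 and 4), of each measured gene in 8 groups by role, with called genes in red (higher) and blue (lower), other genes in grey and the median of each group as a vertical bar. Medians lie between -0.07 and 0.04, while THBS1, ID1, TGIF1, ID2 and ACVR1B lie more than 1 log2 unit above 0 and GDF15 more than 1 below.

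Target genes of the BMP branch split. Of 12 measured 2 rose and 3 fell (41.7% called, against 17.9% of all genes), with a median of -0.02. ID1, a textbook direct target of SMAD1 and SMAD5 that blocks basic helix-loop-helix factors, had values of 12.41, 12.40, 12.41 and 12.42 with estradiol and 10.05, 9.94, 9.98 and 9.96 with vehicle. ID2 had values of 7.94, 7.98, 7.91 and 7.85 and of 6.39, 6.12, 6.27 and 6.18, with both of its probe sets called higher. ID1 has 1 probe set, and both genes have only probe sets with a shared-probe suffix. Each estradiol array was more than 1 log2 unit above each vehicle array for ID1 and for ID2, whose differences were 2.43 ± 0.04 and 1.68 ± 0.06 (SE, limma adjusted p = 5.77e-09 and 4.29e-07). ID3, of the same family, was lower at -0.22 ± 0.06 (SE, adjusted p = 0.0248), with levels of 4.84 and 5.07 near the array medians, and it lost its call in 6 of the 8 fits without 1 array (adjusted p of 0.0506 to 0.0668). HEY1, a repressor also driven by Notch, fell 1.79-fold and MSX1 by 0.19 on the log2 scale. Of the 2 probe sets of MSX1 0 were called among all probe sets. The number called in this list was 3 without estradiol replicate 2, without estradiol replicate 3 and without vehicle replicate 1.

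Target genes of the TGF-beta branch split as well. Of 15 measured 4 rose and 2 fell (40.0% called, against 17.9% of all genes), with a median of -0.02. TGIF1, a corepressor that binds SMAD2 and SMAD3, rose from 6.96 ± 0.09 (SD, n = 4) to 8.73 ± 0.08, 3.40-fold, with all 3 probe sets called higher by 0.39 to 1.95, and 0.39 for the brightest without a shared-probe suffix. The cell cycle inhibitor CDKN1A rose by 0.72, BHLHE40 by 0.66 and fibronectin, FN1, by 0.27, while SNAI1 fell by 0.39 and JUNB by 0.38. FN1 was called on 3 of 7 probe sets, which ran from -0.04 to 0.56. PMEPA1, an inhibitor of TGF-beta signalling induced by it, stood at 4.12 ± 0.15 (SD, n = 4) and 4.14 ± 0.07, below the array medians, a difference of -0.02 ± 0.08 (SE, adjusted p = 0.890).

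The values of 6 genes described above that are known as feedback or inhibitors of the pathway, set side by side after they had been seen, did not share a direction. SMAD6, called on 1 of 4 probe sets, and BAMBI fell, and TGIF1 rose. SMAD7 differed by -0.23, SKIL by 0.11 and PMEPA1 by -0.02 without passing the test. Other inhibitors or repressors described above are not among the 6. Of these TGIF2 fell by 0.52, NEDD4L rose by 0.42 and ZEB2 by 0.41, and SKI, SMURF1 and SMURF2 were not called. The share called was 41.7% in the BMP list and 40.0% in the TGF-beta list, against 17.9% of all genes. In the separate fit of only the genes above the median gene by mean level, with its own adjustment, 43.2% of genes were called. In that fit 4 of 4 BMP genes and 5 of 7 TGF-beta genes were called. The part of expression level in these shares was not tested. With median centring 3 of 12 BMP genes were called, and without shared-probe probe sets 1 of 8, when 3 of 12 TGF-beta genes were called. ID1 and ID2 have only probe sets with such a suffix, so they were not among those 8. Both lists held called genes of either direction, so these counts give neither branch a common direction. Phosphorylated SMAD proteins were not measured here, and the labels name no ligand or receptor inhibitor, so the activity of either branch was not tested.

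The erythroid markers of K562 cells were present. All 6 measured (GATA1, TAL1, KLF1, HBE1, HBZ and ALAS2) lay above the upper quartile of every array, 3 fell, and their mean level was 10.68 to 10.70 with estradiol and 10.97 to 10.9998 with vehicle. Of 11 measured markers of T cells, B cells, fibroblasts, endothelium and epithelium 0 were called by limma (1 at an unadjusted p below 0.05), and their mean level was 5.85 to 5.92 against 5.90 to 5.99. CD3D, COL1A1 and EPCAM lay above the upper quartile of every array, and CD3G, MS4A1, COL3A1 and CDH5 below every array median. The part of the changes of GATA1, KLF1 and HBE1 in those of the SMAD genes was not tested. In RNA of whole cultures fewer cells of a type and less RNA per cell cannot be told apart.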

How the data were processed

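Array values of 8 samples were used, 4 per group, as grouped and numbered by the sample titles. The authors deposited log2 expression values, and the submitters' processing notes name RMA without a version. Because RMA forces arrays to 1 distribution, it can hide a shift common to most genes. The sources used here give no chip definition or genome build. The labelling protocol names Applause WT-Amp ST, a kit made for arrays that read sense targets, while the probe set names are those of an expression array designed for antisense targets. Which strand was hybridised is therefore unsettled, and the values were used as deposited.

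Of 54675 probe sets 41097 had 1 gene symbol in the platform annotation, 1801 had several and 11777 had none listed. Symbols were checked by gene identifier for 41043, and 0 changed. Each gene was read from its brightest probe set by mean value on the 8 arrays, with no filter on dim genes. limma 3.58.1 (lmFit, eBayes, no trend, no block) in R 4.3.3 gave two-sided tests of estradiol minus vehicle, adjusted by Benjamini-Hochberg over 19775 genes or, in a second fit, over all probe sets. Errors of differences are moderated standard errors. The script was tested on simulated data. The number of arrays limits the precision.

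The members, pathway lists, motifs and tests were chosen with earlier results of these data known. The text names all members, up to 4 called genes with the largest change per list (or the one with the smallest p), ID1, ID2, ID3, PMEPA1 and BAMBI, and the 3 genes nearest to each of the 2 called members with the largest change. Another gene of the rule is not reported here. Arrays were not paired by replicate number. Alternatives covered other probe sets, scalings, filters, variance models, a block and single arrays left out. Promoter windows are RefSeq's. Figures were drawn with matplotlib 3.10.9.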

Additional observations from a re-analysis of the deposited data

Results flagged for a closer look

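Groups of 4 values were checked for an array far from the other 3 by Dixon's test, over the 10 members and the named pathway genes, 78 groups in all, of which chance would give about 1 in 20. It marked 3. In vehicle replicate 2 SMAD6 reached 7.14, while the remaining vehicle arrays gave 6.85 to 6.88. In estradiol replicate 1 EP300 was low at 6.82, while its fellow arrays gave 6.92 to 6.94. HEY1 stood at 7.51 in vehicle replicate 1 and at 7.30 to 7.32 in vehicle replicates 2 to 4. The calls of these 3 genes held without the array concerned.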

How the results depend on the processing

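SMAD3 kept its direction and its call under every alternative run. The call of SMAD6 was lost with the mean of its probe sets (-0.22) and with probe sets without a shared-probe suffix (-0.20), that of SMAD2 with the mean of its probe sets (-0.16), and that of SMAD5 with the replicate block (0.24, adjusted p = 0.0646) and at an adjusted p below 0.01 (0.24). SMAD1 passed with 75th percentile centring (-0.21), quantile normalization (-0.23), either filter on dim genes (-0.20) and a trend with a robust fit (-0.20), and SMAD7 with 75th percentile centring (-0.25) and array weights (-0.24). With 1 array left out, SMAD1 ran from -0.25 to -0.18, SMAD5 from 0.20 to 0.29, SMAD7 from -0.29 to -0.17 and the change of SMAD7 minus SMAD6 from 0.14 to 0.36. Of the members 2 were called with the mean of probe sets and 2 with a 1.2-fold limit. Of their probe sets 14 were called with the trend and robust fit, 4 with the replicate block and 4 at 0.01, and 4 to 10 with 1 array left out. Genes called fell from 3538 to 2322 without shared-probe probe sets, where fewer genes were tested, to 2179 at 0.01 and to 2262 with the 1.2-fold limit. Called ligands numbered 2 with the mean of probe sets, without shared-probe probe sets, with the block and with the fold limit, 1 at 0.01, and 2 to 4 with 1 array left out. Called cytoplasmic regulators numbered 2 without shared-probe probe sets, 8 with the trend and robust fit and 3 with the fold limit, and nuclear cofactors 5 at 0.01. Called BMP targets numbered 1 without shared-probe probe sets, 3 with median centring, the block, 0.01 or the fold limit, and 3 to 4 with 1 array left out, and TGF-beta targets 3 without shared-probe probe sets. ID1 and ID2 could not be read without shared-probe probe sets. The cause of the other moves was not tested. Of 537 values of 29 named pathway genes under alternatives, 502 kept their side of the threshold, 35 lost their call and 0 reversed.

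Arrays were not paired by replicate number in the main fit. Deviations of same-numbered arrays correlated at -0.05, -0.21, 0.09 and 0.11 over genes, and only estradiol replicate 3 correlated best with the vehicle array of its own number. The labels do not say whether same-numbered cultures were handled together, and these correlations cannot settle it. With the replicate block 2598 genes and 3 of the 10 members were called. SMAD7 and SMAD9 could not be read in the filter to genes above the median gene.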
